A study of Mus musculus with 15 samples.

Results

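The genes of the cytochrome P450 family were followed in interscapular brown fat, the depot between the shoulder blades. They were taken as all probe sets with a lone gene symbol that starts with Cyp and a digit, leaving out Cyp51, and each gene was read from its brightest probe set, averaged over the mice. This gave 72 genes on 95 probe sets, of 18194 genes on the array. Of the 72, 26 (36.1%) had a mean above the filter on low values, 5.06 on the log2 scale, against 72.4% of all genes. The 18194 genes had 34958 probe sets. A gene with more probe sets can pass more easily by its brightest, and the part of this in the difference was not tested.

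All tissue came from wild-type adult male C57BL/6N mice on a high-fat diet, 5 mice per group and 15 in all, taken on day 5. The aFGFR1/KLB group had received bFKB1, an antibody that activates the receptor FGFR1 together with its co-receptor KLB, in a lone intraperitoneal injection of 10 mg/kg. The FGF21 group had received human FGF21, a hormone that signals through the same pair of receptors, at 1 mg/kg in 2 injections a day. For the control group the labels name no injected substance. The arrays read the whole tissue piece, in which fewer cells of a type and less RNA per cell cannot be told apart.

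Cytochrome P450s are heme enzymes that put an oxygen atom into fatty acids, sterols, steroids, vitamins and foreign compounds. Most sit in the endoplasmic reticulum and receive electrons from P450 reductase and cytochrome b5, and a few sit in mitochondria and receive them from ferredoxin. The family is best known from liver, where nuclear receptors such as CAR and PXR switch on its drug-metabolising members, while other members make or break down signals in many tissues.

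Median intensities of the 15 arrays lay between 50.6 and 52.1, and samples correlated at 0.962 to 0.997 across genes. Control 34 and FGF21 36 stood apart. Their mean log2 levels over 12 macrophage markers were 10.14 for control 34 and 10.38 for FGF21 36, where the other controls had 7.83 to 8.77, the other FGF21 samples 8.08 to 9.34 and the antibody samples 8.39 to 9.05. Control 34 was the highest or lowest control for 22 of the 26 Cyp genes above the filter, and FGF21 36 the highest or lowest FGF21 sample for 17. Mean levels of 10 skeletal muscle markers varied widely from mouse to mouse, over 4.86 to 13.20 with the antibody, 4.67 to 13.05 with FGF21 and 9.20 to 11.09 in controls. The brown adipocyte markers were all present (11 of 11 measured above the filter), and Ucp1 and Cidea were among them. With the antibody 4 of these 11 rose and 1 fell (45.5%), and with FGF21 2 rose and 2 fell (36.4%), where 5.18% and 6.32% of all genes passed. Their part in the changes of Cyp genes was not tested.

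The level of a probe set also depends on its probes, so levels are set here against the filter and not against other genes as amounts of transcript. As a second floor served 70 olfactory and vomeronasal receptor genes, a class of sensory receptors, whose 95th percentile was 5.36 and whose highest gene had 6.28. Of the 26 Cyp genes, 21 lay above 5.36. The members nearest to the filter were Cyp2c38 (mean 5.27), Cyp17a1 (5.21) and Cyp2j11 (5.15) above it and Cyp8b1 (4.87), Cyp2b13 (4.81) and Cyp4f39 (4.72) below it. In the plot of levels by mouse, 13 genes from Cyp4b1 to Cyp2e1 have means of 6.74 or more, and the other 13 have means of 5.15 to 5.87.

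**Figure D1:**
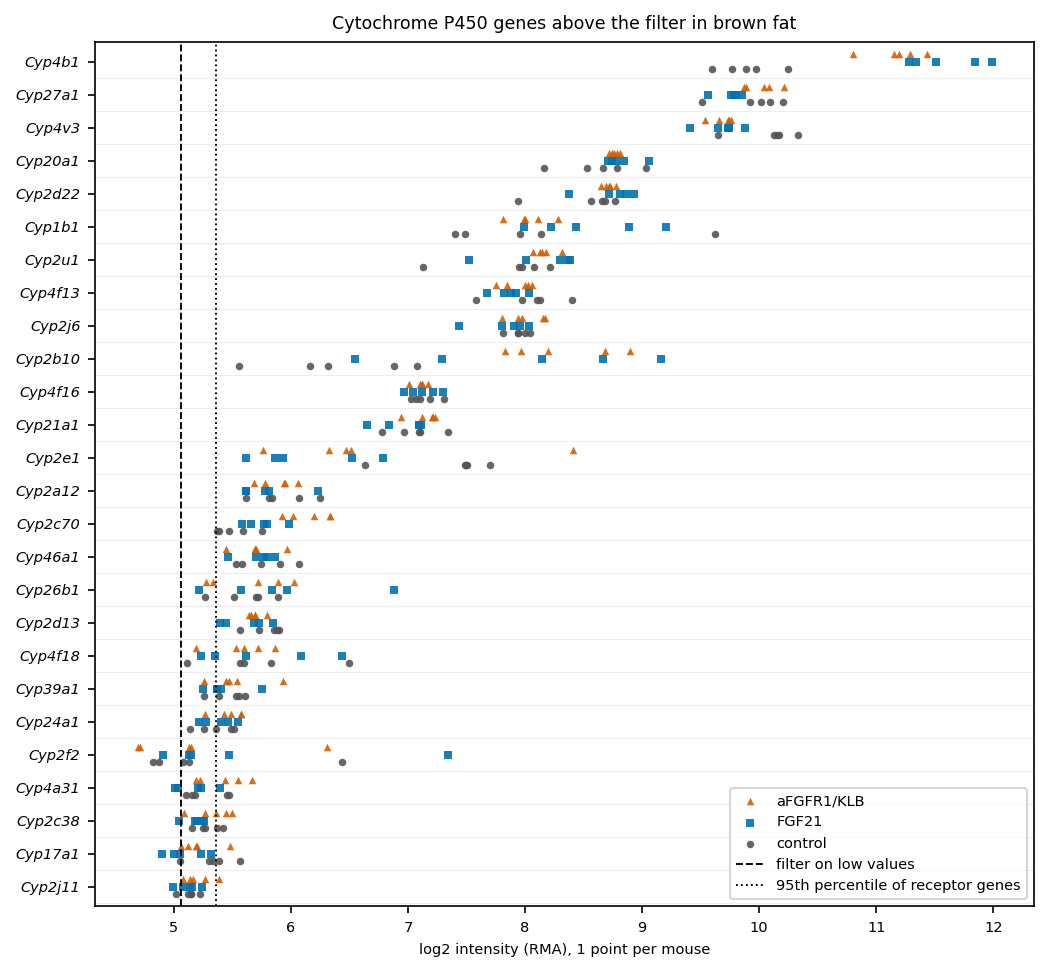
Log2 intensity (RMA) of the 26 cytochrome P450 genes above the filter, 1 point per mouse, with triangles for aFGFR1/KLB, squares for FGF21 and circles for control (n = 5 each). The dashed line is the filter at 5.06 and the dotted line the 95th percentile of 70 receptor genes at 5.36; all 5 values of both treated groups lie right of the controls for Cyp4b1.

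Members of every functional group were above the filter. Among enzymes of fatty acids and eicosanoids these were 11 of 30 genes: Cyp4b1 (mean 10.89), Cyp4v3 (9.82), Cyp2u1 (8.05), Cyp4f13 (7.95), Cyp2j6 (7.93), Cyp4f16 (7.13), Cyp2e1 (6.74), Cyp4f18 (5.68), Cyp4a31 (5.29), Cyp2c38 (5.27) and Cyp2j11 (5.15). Among enzymes known mainly for foreign compounds they were 6 of 24: Cyp2d22 (8.66), Cyp1b1 (8.24), Cyp2b10 (7.56), Cyp2a12 (5.87), Cyp2d13 (5.70) and Cyp2f2 (5.36). For Cyp2f2, 1 mouse per group stood far above the rest, at 6.44 (control 34), 7.34 (FGF21 39) and 6.31 (aFGFR1/KLB 44). The other mice had 4.69 to 5.47, on both sides of the filter. Enzymes of cholesterol, oxysterols and bile acids had 4 of 7, Cyp27a1 (9.91), Cyp2c70 (5.81), Cyp46a1 (5.73) and Cyp39a1 (5.48), while Cyp7a1, the rate-limiting enzyme of bile acid synthesis, and Cyp7b1 and Cyp8b1 were below it. Of 5 steroid hormone enzymes, Cyp21a1 (7.05) and Cyp17a1 (5.21) were above it and the side-chain cleavage enzyme Cyp11a1 was not. Cyp26b1, which degrades retinoic acid (5.72), and Cyp24a1, which degrades vitamin D (5.40), were above it, and so was Cyp20a1, an enzyme without a settled substrate (8.74). All further probe sets of Cyp1b1, Cyp21a1, Cyp24a1, Cyp27a1, Cyp2d13, Cyp4a31 and Cyp4f18 were below the filter, from 2.87 (Cyp27a1) to 4.92 (Cyp21a1). Those of Cyp2b10, Cyp2d22, Cyp2j6, Cyp2u1, Cyp4f16 and Cyp4v3 were above it, and those of Cyp20a1 lay on both sides (6.00 and 4.84). With the mean of all probe sets in place of the brightest, 23 Cyp genes were above the filter.

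Members also differed by where they lie in the genome. Cyp genes of the RefSeq annotation, on the array or not, were joined into neighbourhoods wherever the gap was at most 1 Mb. Of the 72 genes, 51 share a neighbourhood with another Cyp gene on the array, in 9 neighbourhoods, and 13 of these 51 were above the filter. The other 21 genes stand alone on the array, and 13 of these 21 were above it. The Cyp2c neighbourhood had 2 of 10 genes above the filter, the Cyp2d neighbourhood 2 of 8 and the neighbourhood of 4 Cyp3a genes 0 of 4. The neighbourhood of Cyp2b10 and Cyp2f2 had 3 of 8, those of Cyp2j6 and Cyp4b1 2 of 5 each and that of Cyp4f13 2 of 6. Those of Cyp11b1 and Cyp1a1 had 0 of 2 and 0 of 3. Of the hepatocyte markers, 5 of 12 were above the filter, and albumin (Alb) was at 4.81.

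Antibody-treated mice were set against control mice to see which members change when FGFR1/KLB is activated. Cyp4b1, Cyp2b10 and Cyp2c70 rose, by 2.43-fold, 3.78-fold and 1.56-fold, and no member fell. These are 3 of the 26 members tested (11.5%), against 5.18% of all 13174 genes tested, 2.69% up and 2.49% down (limma, Benjamini-Hochberg adjusted p under 0.05 over all genes). For the same 3 members all antibody values lay above all control values, which held for 4.44% of all genes. The median log2 fold change was 0.05 over the members and −0.02 over all genes, and its median size, sign aside, was 0.0957 and 0.107.

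With FGF21, set against the same control mice, Cyp4b1 rose by 3.25-fold and Cyp2b10 by 2.96-fold, and no member fell. These are 2 of 26 members (7.69%), where 6.32% of all genes passed, 2.64% up and 3.68% down (limma, adjusted p under 0.05). All FGF21 values lay above all control values for 1 member, Cyp4b1, and for 2.37% of all genes. Without control 34, 4 members passed: Cyp4b1 and Cyp1b1 were higher, and Cyp4v3 and Cyp27a1 lower, while Cyp2b10 missed the threshold. Without aFGFR1/KLB 42, 43, 44 or 45, FGF21 38, 39 or 40 or control 31, 32 or 33 in turn, 1 member passed, Cyp4b1. The median log2 fold change was −0.03 over the members and −0.02 over all genes, and its median size was 0.183 and 0.11.

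Between the antibody and FGF21, limma called 0 of 26 members and 0.372% of all genes. A raw limma p below 0.05 was found for 4 of the 26 members and for 1778 of all 13174 genes tested. All antibody values lay above all FGF21 values for 1 member, Cyp27a1, and for 2.39% of all genes. Both comparisons with control share their control mice, so their values stand side by side below.

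**Figure D2:**
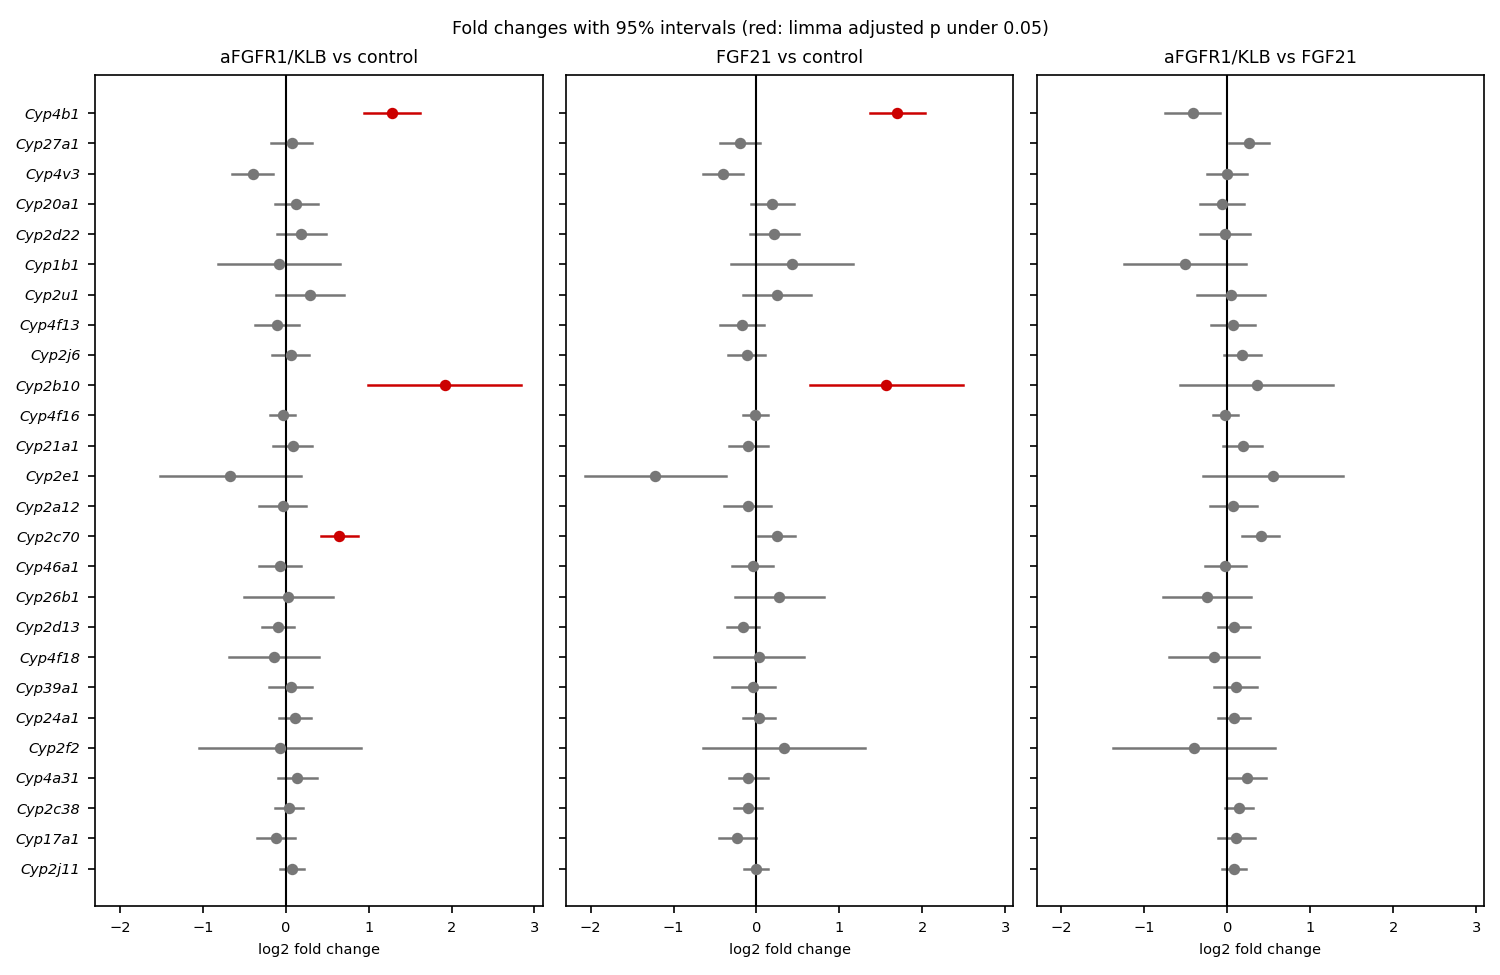
Log2 fold change of each of the 26 genes (points) with its 95% interval from limma (lines, n = 5 per group) for aFGFR1/KLB against control, FGF21 against control and aFGFR1/KLB against FGF21. Red marks adjusted p under 0.05: Cyp4b1, Cyp2b10 and Cyp2c70 in the first panel, Cyp4b1 and Cyp2b10 in the second, none in the third.

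Cyp4b1 hydroxylates fatty acids and is known for activating toxic furans in lung. Its log2 levels were 11.43, 11.16, 11.29, 10.80 and 11.19 in antibody-treated mice, 11.51, 11.34, 11.99, 11.28 and 11.84 in FGF21-treated mice and 9.97, 9.77, 9.59, 9.89 and 10.25 in control mice. Every treated mouse was above every control mouse, and 3 of the 5 FGF21 values exceeded all antibody values. Group means were 11.18 ± 0.23 with the antibody, 11.59 ± 0.31 with FGF21 and 9.89 ± 0.24 in controls (SD, n = 5 each). The log2 fold change was 1.28 ± 0.16 with the antibody (SE, adjusted p = 0.000735) and 1.70 ± 0.16 with FGF21 (adjusted p = 2.98e-05). The antibody differed from FGF21 by −0.42 ± 0.16 (95% interval −0.75 to −0.08), which did not pass (adjusted p = 0.278). Both rises passed in each of 26 alternative fits. Across the 15 mice, deviations of Cyp4b1 from the group mean set against those of the macrophage list gave r = 0.17 (p = 0.536, adjusted p = 0.619) and rho = 0.14 (p = 0.622, adjusted p = 0.727), and r = 0.38 without FGF21 36 and control 34 (permutation tests, n = 15). Set against the brown adipocyte list they gave r = −0.22 (permutation test, p = 0.431, adjusted p = 0.534). There rho was −0.54 (permutation test, p = 0.0425, adjusted p = 0.157), and r was −0.50 without FGF21 36 and control 34. Neither list passed.

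Cyp2b10, a drug-metabolising enzyme that serves as the standard target gene of CAR in mouse liver, had log2 levels of 8.90, 7.97, 8.69, 8.20 and 7.83 in antibody-treated mice, 6.55, 7.29, 8.15, 8.66 and 9.16 in FGF21-treated mice and 6.32, 6.88, 6.16, 5.56 and 7.08 in control mice. All antibody values lay above all control values. FGF21 36 (6.55) lay within the control range, FGF21 37 (7.29) just above it, and the other 3 FGF21 mice well above it. The log2 fold change was 1.92 ± 0.43 with the antibody (adjusted p = 0.0202) and 1.56 ± 0.43 with FGF21 (adjusted p = 0.0444), and the treatments differed by 0.35 (95% interval −0.57 to 1.28, adjusted p = 0.721). The antibody call ended without aFGFR1/KLB 41 or 43 or control 33 in turn (adjusted p 0.0506 to 0.0556). The FGF21 call ended without aFGFR1/KLB 41, 42, 43, 44 or 45, FGF21 38, 39 or 40 or control 31, 32, 33 or 34 in turn (adjusted p 0.0512 to 0.11), and it held in 8 of 26 alternative fits. Among those that ended it were a fit without the antibody mice (adjusted p = 0.122) and centring on ribosomal protein genes (adjusted p = 0.108). Without control 34 and FGF21 36 together it passed (log2 fold change 1.71, adjusted p = 0.00669).

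Cyp2b10 had 2 further probe sets above the filter. One was higher by 1.82 with the antibody and 1.52 with FGF21 (adjusted p = 0.0211 and 0.0428 over all probe sets). The other was higher by 0.73 and 0.61 and did not pass (adjusted p = 0.0804 and 0.141). The pair that passed carries the suffix that Affymetrix gives to probe sets matching several transcripts, so related Cyp2b transcripts may share this signal. The neighbours Cyp2b13 and Cyp2b9 were below the filter on their own probe sets, at 4.81 and 4.70.

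Cyp2c70, which makes muricholic bile acids in mouse liver, had log2 levels of 6.34, 6.33, 6.02, 6.19 and 5.92 in antibody-treated mice, 5.77, 5.80, 5.98, 5.66 and 5.58 in FGF21-treated mice and 5.38, 5.59, 5.47, 5.37 and 5.76 in control mice. The antibody values lay above all controls, 3 of the 5 FGF21 values exceeded the highest control, and the other 2 lay within the control range. The log2 fold change was 0.65 ± 0.10 with the antibody (adjusted p = 0.00327) and 0.24 ± 0.10 with FGF21 (adjusted p = 0.195), and the treatments differed by 0.40 ± 0.10 (adjusted p = 0.11). Its mean of 5.81 lies below the highest receptor gene (6.28). The summed intensity of 12 hepatocyte markers, with Alb, Apob, Fgb, Fga, Tdo2, Ahsg and Hpx below the filter, was 395 to 470 in antibody-treated, 384 to 457 in FGF21-treated and 350 to 543 in control mice. The part of such cells in the change of Cyp2c70 was not tested.

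**Figure D3:**
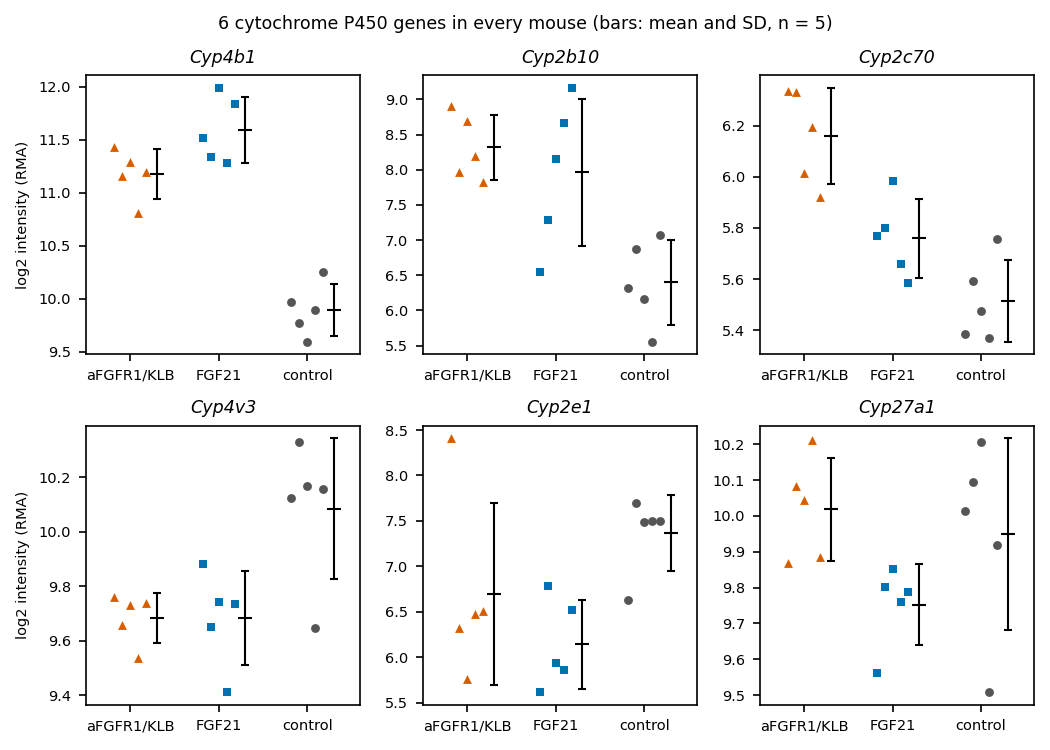
Log2 intensity (RMA) of Cyp4b1, Cyp2b10, Cyp2c70, Cyp4v3, Cyp2e1 and Cyp27a1 in each mouse of the aFGFR1/KLB (triangles), FGF21 (squares) and control (circles) groups, with mean and SD (bars, n = 5). Each vertical axis has its own range; control 34 is the low control for Cyp4v3 (9.65) and Cyp27a1 (9.51), and aFGFR1/KLB 41 the high antibody sample for Cyp2e1 (8.41).

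The stretches of DNA before the start sites of the 3 genes that rose are shown, since these are the members that moved with treatment. They are the 250 bases upstream of each start in the RefSeq annotation (GRCm38.p6), read in the direction of the gene: chr4:115647722-115647971 on the minus strand for Cyp4b1, chr7:25897408-25897657 on the plus strand for Cyp2b10 and chr19:40187287-40187536 on the minus strand for Cyp2c70. Capitals mark matches to AGGTCA, the half-site of many nuclear receptors, or GCGTG, the core of the xenobiotic response element, searched on both strands.
Cyp4b1: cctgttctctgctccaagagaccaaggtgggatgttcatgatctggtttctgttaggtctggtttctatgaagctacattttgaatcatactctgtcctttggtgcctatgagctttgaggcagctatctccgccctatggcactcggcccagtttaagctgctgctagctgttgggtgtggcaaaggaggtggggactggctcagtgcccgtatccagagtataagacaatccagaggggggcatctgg
Cyp2b10: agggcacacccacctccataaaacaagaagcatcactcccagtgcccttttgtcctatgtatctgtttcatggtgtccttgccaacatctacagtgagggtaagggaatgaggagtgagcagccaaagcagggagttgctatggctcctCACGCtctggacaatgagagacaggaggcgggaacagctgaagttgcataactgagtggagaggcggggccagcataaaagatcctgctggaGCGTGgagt
Cyp2c70: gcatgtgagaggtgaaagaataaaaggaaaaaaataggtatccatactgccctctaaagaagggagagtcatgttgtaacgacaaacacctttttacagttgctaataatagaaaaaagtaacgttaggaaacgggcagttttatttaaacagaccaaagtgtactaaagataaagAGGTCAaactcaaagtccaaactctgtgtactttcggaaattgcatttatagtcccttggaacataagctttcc
GCGTG was found at 2 places before Cyp2b10 and AGGTCA at 1 place before Cyp2c70, and neither before Cyp4b1. AGGTCA occurs in 14% and GCGTG in 28.2% of all 32851 such windows. Of the 18 members above the filter that have a promoter entry, 2 hold AGGTCA and 6 hold GCGTG.

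Cyp4v3, an enzyme that hydroxylates fatty acids at the chain end, was the member nearest to passing downward. Its log2 levels were 9.76, 9.66, 9.73, 9.54 and 9.74 in antibody-treated mice, 9.88, 9.65, 9.74, 9.41 and 9.73 in FGF21-treated mice and 10.12, 10.33, 10.17, 9.65 and 10.16 in control mice. In 4 of the 5 control mice the level lay above every treated mouse, and control 34 (9.65) lay among the treated mice. The log2 fold change was −0.40 ± 0.11 with the antibody (adjusted p = 0.0561) and −0.40 ± 0.11 with FGF21 (adjusted p = 0.0502), with a 95% interval of −0.24 to 0.24 for the difference between the treatments. Without control 34 the values were −0.51 (adjusted p = 0.00336) and −0.51 (adjusted p = 0.00168), both past the threshold. Without FGF21 36 both passed as well (adjusted p = 0.0439 and 0.032), and without FGF21 39 the antibody comparison passed (adjusted p = 0.047). In all, 7 of 26 alternative fits called it for the antibody and 9 of 26 for FGF21. The other Cyp4v3 probe set had log2 fold changes of −0.46 and −0.43 (adjusted p = 0.0501 and 0.0617 over all probe sets).

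Cyp2e1, which oxidises ethanol, acetone and fatty acids, was singled out after its values were seen. It had log2 levels of 8.41, 6.33, 5.76, 6.47 and 6.51 in antibody-treated mice, 5.62, 6.79, 5.93, 5.86 and 6.53 in FGF21-treated mice and 6.63, 7.70, 7.49, 7.50 and 7.49 in control mice. In 4 of the 5 controls the level was between 7.49 and 7.70, and control 31 (6.63) was lower. aFGFR1/KLB 41 (8.41) exceeded every other mouse, while the other 4 antibody mice lay below all controls. The log2 fold change was −0.67 ± 0.40 with the antibody (adjusted p = 0.394) and −1.22 ± 0.40 with FGF21 (adjusted p = 0.0857), and neither passed. Without aFGFR1/KLB 41 both passed, at −1.10 (adjusted p = 0.0412) and −1.22 (adjusted p = 0.0126). That mouse is in neither group of the FGF21 comparison and enters it through the spread shared by the 3 groups. The FGF21 comparison also passed in a fit of the FGF21 and control mice alone. Skeletal muscle markers had a mean of 11.84 in aFGFR1/KLB 41 and 13.20 in aFGFR1/KLB 45, where the other antibody mice had 4.86 to 8.63. The summed intensity of 7 white adipocyte markers was 6475 in aFGFR1/KLB 41 and 1823 to 4279 in the other antibody mice, 2732 to 9235 in FGF21 mice and 4680 to 5630 in controls. FGF21 36 had the highest sum (9235) and a muscle mean of 13.05, and its Cyp2e1 level (5.62) was the lowest of all mice. The highest muscle mean was that of aFGFR1/KLB 45, where Cyp2e1 was 6.51. Deviations of Cyp2e1 from the group mean set against those of the skeletal muscle list did not pass. They gave r = 0.27 (p = 0.341, adjusted p = 0.447) and rho = 0.15 (p = 0.581, adjusted p = 0.711; permutation tests, n = 15). Without FGF21 36 and aFGFR1/KLB 45 r was 0.56. The part of either list in the change of Cyp2e1 with treatment was not tested.

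Cyp27a1, the mitochondrial sterol hydroxylase that makes oxysterols and bile acid precursors, had log2 levels of 9.87, 10.08, 10.05, 10.21 and 9.89 in antibody-treated mice, 9.56, 9.80, 9.85, 9.76 and 9.79 in FGF21-treated mice and 10.02, 10.09, 10.21, 9.51 and 9.92 in control mice. The antibody values lay just above all FGF21 values, and the control values spread over nearly the whole range of both. The antibody differed from FGF21 by 0.27 ± 0.11 (adjusted p = 0.331), and FGF21 from control by −0.20 ± 0.11 (adjusted p = 0.37). Without control 34 the change with FGF21 was −0.31 (adjusted p = 0.0271), past the threshold.

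Cyp20a1 had log2 levels of 8.74, 8.76, 8.81, 8.72 and 8.79 in antibody-treated mice, 9.06, 8.71, 8.74, 8.78 and 8.84 in FGF21-treated mice and 8.78, 8.66, 8.16, 9.03 and 8.53 in control mice. The antibody values lay closest together and the control values furthest apart, and the groups overlapped. Cyp2d22, of the drug-metabolising D subfamily, had 8.65, 8.69, 8.77, 8.73 and 8.72 in antibody-treated mice, 8.38, 8.86, 8.93, 8.72 and 8.81 in FGF21-treated mice and 8.77, 8.65, 8.68, 7.94 and 8.57 in control mice. Control 34 was the lowest of all mice for Cyp2d22, and FGF21 36 the next. Neither gene passed (adjusted p = 0.632 and 0.505 with the antibody, 0.425 and 0.424 with FGF21).

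Cyp1b1, an enzyme of oestrogens and retinoids found mainly outside the liver, had log2 levels of 7.99, 7.81, 8.28, 8.11 and 8.00 in antibody-treated mice, 8.89, 7.99, 8.22, 9.21 and 8.44 in FGF21-treated mice and 7.96, 7.49, 7.40, 9.62 and 8.14 in control mice. Control 34 was the highest of all mice and the other 4 controls ranged over 7.40 to 8.14. The log2 fold change was −0.08 ± 0.35 with the antibody (adjusted p = 0.934) and 0.43 ± 0.35 with FGF21 (adjusted p = 0.548). Without control 34 the FGF21 value was 0.80 (adjusted p = 0.0273), and without control 34 and FGF21 36 together 0.72 (adjusted p = 0.0509). The macrophage markers, given above, were highest in FGF21 36 and control 34, and their part in the result was not tested.

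The remaining 17 members did not pass in either comparison with control. Their log2 fold changes ran over −0.14 (Cyp4f18) to 0.30 (Cyp2u1) with the antibody and −0.23 (Cyp17a1) to 0.33 (Cyp2f2) with FGF21. Of fatty acid enzymes, Cyp2u1 was higher by 0.30 with the antibody and 0.25 with FGF21 (adjusted p = 0.442 and 0.526), and its other probe set by 0.71 and 0.51 (adjusted p = 0.072 and 0.198 over all probe sets). Cyp4f16 had a narrow 95% interval, −0.19 to 0.12 with the antibody and −0.17 to 0.14 with FGF21. The epoxygenase Cyp2j6 had intervals of −0.16 to 0.28 and −0.34 to 0.11. For Cyp2f2, a lung enzyme, the interval ran over −1.04 to 0.90 with the antibody. Cyp26b1 had −0.50 to 0.56, Cyp24a1 −0.08 to 0.31 and Cyp21a1 −0.15 to 0.32.

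Members differed widely in their spread between mice of a group. The residual SD on the log2 scale was 0.79 for Cyp2f2, 0.75 for Cyp2b10, 0.69 for Cyp2e1, 0.60 for Cyp1b1, 0.44 for Cyp4f18 and 0.43 for Cyp26b1. It was 0.26 for Cyp4b1 and 0.10 for Cyp2j11, the smallest. Among these Cyp4b1 joined a moderate spread with a range of 2.39 over all 15 mice, set by the gap between treated and control mice.

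Several members moved together with markers of other cells from mouse to mouse. The mean of each marker list and each of the 26 genes were taken as deviations from the group mean, and 104 relations to 4 lists (macrophage, fibroblast and matrix, skeletal muscle, brown adipocyte) were computed, with p-values from 100000 permutations adjusted over the 104. Deviations were shuffled over all 15 mice and not within groups, although each group was centred on its own mean. These p-values may therefore be too small. By Pearson's r 30 passed and by Spearman's rho 11, all of them among the 30. Cyp1b1 and the macrophage list had r = 0.87 (p = 5e-05, adjusted p = 0.00104) and rho = 0.88 (p = 3e-05, adjusted p = 0.00312), and r = 0.82 without FGF21 36 and control 34 (permutation tests, n = 15). With the fibroblast and matrix list Cyp1b1 had r = 0.89 (p = 5e-05, adjusted p = 0.00104) and rho = 0.86 (p = 0.0001, adjusted p = 0.00442), and r = 0.79 without FGF21 36 and control 34 (permutation tests). Mice above their group's mean for Cyp1b1 thus tended to be above it for both lists, which were themselves highest in the mice that stand apart. Cyp4f18, which inactivates leukotrienes in mouse neutrophils, and the fibroblast and matrix list had r = 0.90 (p = 1e-05, adjusted p = 0.000693) and rho = 0.84 (p = 0.00017, adjusted p = 0.00442), and r = 0.79 without FGF21 36 and control 34 (permutation tests, where 1e-05 is the smallest p they can give). With the macrophage list Cyp4f18 had r = 0.90 (p = 2e-05, adjusted p = 0.000693) and rho = 0.82 (p = 0.00029, adjusted p = 0.00603), and r = 0.76 without FGF21 36 and control 34 (permutation tests). Cyp27a1 and the fibroblast and matrix list had r = −0.89 (p = 2e-05, adjusted p = 0.000693) and rho = −0.85 (p = 0.00013, adjusted p = 0.00442), and r = −0.69 without FGF21 36 and control 34 (permutation tests). Cyp26b1 and the brown adipocyte list had r = −0.84 (p = 0.00014, adjusted p = 0.00243) and rho = −0.81 (p = 0.00047, adjusted p = 0.00815), and r = −0.66 without FGF21 36 and control 34 (permutation tests). Cyp26b1 and the fibroblast and matrix list had r = 0.69 (adjusted p = 0.0312) and rho = 0.74 (adjusted p = 0.0219, permutation tests). For the macrophage list, Cyp21a1 had r = −0.75 (adjusted p = 0.0105) and rho = −0.72 (adjusted p = 0.0307, permutation tests). Cyp39a1 had r = 0.66 (adjusted p = 0.0348) and rho = 0.775 (adjusted p = 0.0169, permutation tests). Without FGF21 36 and control 34 these r were 0.59, −0.44 and 0.54.

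For Cyp2d22 and Cyp2u1 the relation to the macrophage list passed by r and not by rho, while that to the fibroblast and matrix list passed by both, and all 4 were weaker without the mice that stand apart. Cyp2d22 and the macrophage list had r = −0.82 (p = 0.00103, adjusted p = 0.0101) and rho = −0.53 (p = 0.0461, adjusted p = 0.157), and r = −0.35 without FGF21 36 and control 34 (permutation tests, n = 15). Cyp2u1 and that list had r = −0.82 (p = 0.00104, adjusted p = 0.0101) and rho = −0.59 (p = 0.0227, adjusted p = 0.113), and r = −0.38 without FGF21 36 and control 34 (permutation tests, n = 15). With the fibroblast and matrix list Cyp2d22 had r = −0.89 (p = 0.00017, adjusted p = 0.00253) and rho = −0.77 (p = 0.00123, adjusted p = 0.0169), and r = −0.54 without FGF21 36 and control 34 (permutation tests, n = 15). Cyp2u1 had r = −0.88 (p = 0.00024, adjusted p = 0.00312) and rho = −0.74 (p = 0.00211, adjusted p = 0.0219), and r = −0.53 without FGF21 36 and control 34 (permutation tests, n = 15). Cyp2b10 passed by r alone with the brown adipocyte list, at r = 0.63 (p = 0.0102, adjusted p = 0.038) and rho = 0.40 (p = 0.136, adjusted p = 0.295), and r = 0.19 without FGF21 36 and control 34 (permutation tests, n = 15). Neither relation of Cyp2b10 nor of Cyp2c70 to the macrophage list passed (permutation tests, n = 15, adjusted p = 0.282 and 0.356). Summed intensities of the 12 macrophage markers, 10 of them above the filter, were 9282 to 14955 in antibody-treated, 6945 to 45048 in FGF21-treated and 5835 to 36021 in control mice.

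**Figure D4:**
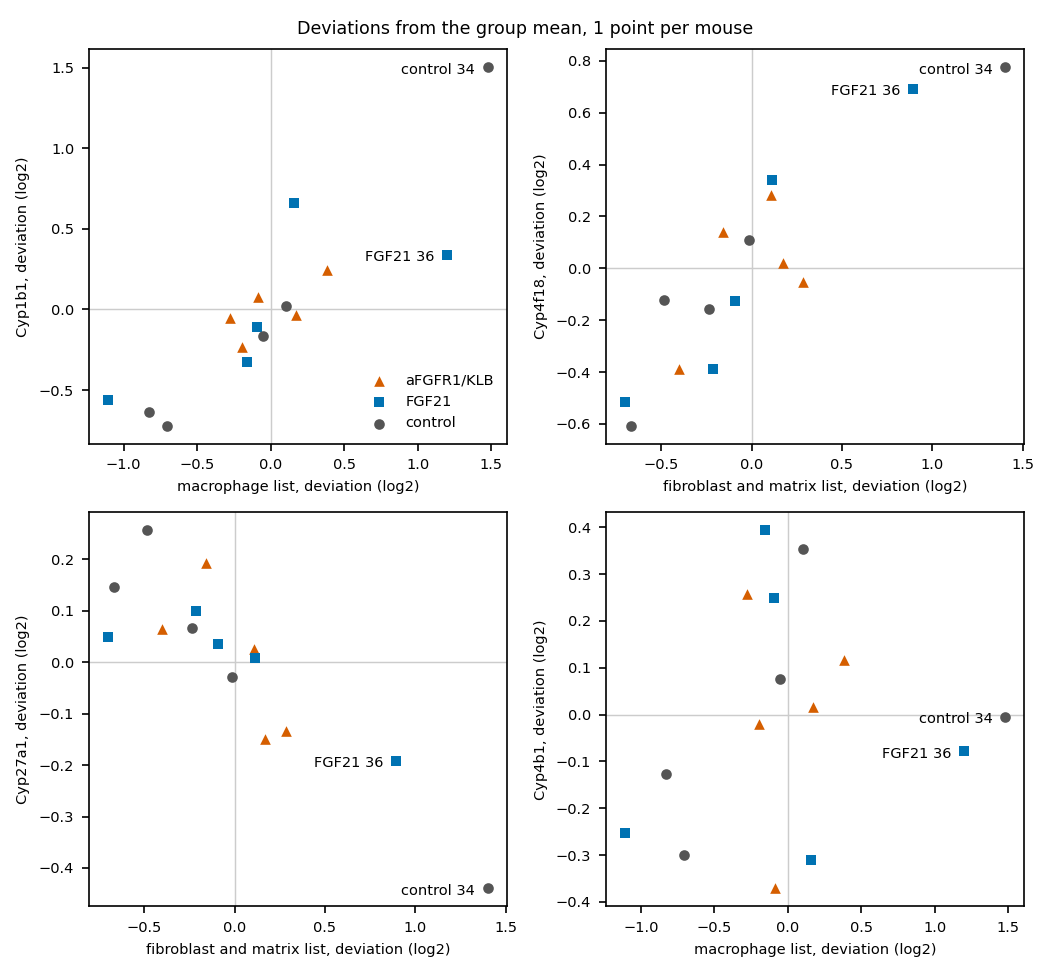
Deviation of Cyp1b1, Cyp4f18, Cyp27a1 and Cyp4b1 from the group mean (vertical, log2) against the deviation of the mean of a marker list (horizontal, log2), 1 point per mouse, with control 34 and FGF21 36 named. Cyp1b1 and Cyp4f18 go up with the list and Cyp27a1 goes down, while Cyp4b1 shows no clear relation to the macrophage list (r = 0.17).

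The enzymes and regulators that cytochrome P450s work with were described from 4 lists of 85 symbols, of which 76 had a probe set of their own and 69 were above the filter. P450 reductase (Por) and ferredoxin reductase (Fdxr) were among the 9 not analysed here. With the antibody 9 of 69 passed, 4 up and 5 down, and with FGF21 7 of 69, 3 up and 4 down, which is 13% and 10.1%, where 5.18% and 6.32% of all genes passed. Between the treatments 1 of 69 passed, downward, as did 0.243% of all genes. With each array centred on ribosomal protein genes, the antibody calls of Alas1, Hmox2 and Ephx2 ended (adjusted p = 0.0902, 0.141 and 0.106), as did the FGF21 calls of Cyb5r1, Tiparp, Ppara, Nr3c1, Ephx1 and Gsta3 (adjusted p 0.0513 to 0.277) and the call of Blvra between the treatments (adjusted p = 0.389). In the text below, a log2 fold change comes with its SE and limma's adjusted p.

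Of 9 electron donors, 1 rose in each comparison with control (11.1%, where 5.18% and 6.32% of all genes passed), and no other passed. This was Cyb5r1, a reductase of the cytochrome b5 reductase family. Its levels were 9.37 to 9.64 in antibody-treated mice, 9.26 to 9.44 in FGF21-treated mice and 8.86 to 9.03 in control mice. Both treated groups lay above all controls, with log2 fold changes of 0.54 ± 0.06 with the antibody (adjusted p = 0.000671) and 0.37 ± 0.06 with FGF21 (adjusted p = 0.00409). Cyb5a, cytochrome b5 itself, had 12.07 to 12.32 in antibody-treated mice, 12.34 to 12.72 in FGF21-treated mice and 12.19 to 12.41 in control mice and did not pass (adjusted p = 0.486 and 0.33). Fdx1, the ferredoxin of mitochondrial P450s, had 11.54 to 11.64 in antibody-treated mice, 11.17 to 11.76 in FGF21-treated mice and 11.49 to 11.94 in control mice and did not pass (adjusted p = 0.632 and 0.375).

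Of 13 genes of heme synthesis and breakdown, 1 rose and 3 fell with the antibody (30.8%), and 1 fell with FGF21 (7.69%). Of all genes, 5.18% and 6.32% passed. Alas1, the rate-limiting enzyme of heme synthesis in most tissues, had log2 levels of 10.79, 10.82, 10.89, 11.35 and 11.06 in antibody-treated mice, 10.69, 10.41, 11.16, 11.15 and 11.02 in FGF21-treated mice and 11.66, 11.61, 11.73, 11.63 and 11.67 in control mice. All treated mice lay below all controls, with log2 fold changes of −0.68 ± 0.14 with the antibody (adjusted p = 0.0129) and −0.77 ± 0.14 with FGF21 (adjusted p = 0.00469). The biliverdin reductases Blvra and Blvrb, which act after heme is broken down, fell with the antibody (log2 fold changes −0.64 ± 0.08, adjusted p = 0.000975, and −0.56 ± 0.10, adjusted p = 0.00578). Blvra had 9.66 to 9.82 in antibody-treated mice, 10.03 to 10.36 in FGF21-treated mice and 10.23 to 10.63 in control mice, and the antibody mice lay below both other groups.

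With FGF21 the changes were −0.22 for Blvra (adjusted p = 0.138) and −0.31 for Blvrb (adjusted p = 0.0736). Blvra was lower with the antibody than with FGF21 (log2 fold change −0.42 ± 0.08, adjusted p = 0.0438), a call that ended without aFGFR1/KLB 41, 42, 43, 44 or 45, FGF21 36, 37, 38 or 40 or control 31 or 32 in turn (adjusted p 0.0547 to 0.12). Hmox2, the constant form of heme oxygenase, rose with the antibody by 0.22 ± 0.06 (adjusted p = 0.0473), which ended without aFGFR1/KLB 41, 42, 43 or 44, FGF21 37, 38, 39 or 40 or control 31, 32, 33 or 35 in turn (adjusted p 0.0567 to 0.126). Hmox1, the inducible form, had 6.52 to 7.75 in antibody-treated mice, 7.88 to 8.58 in FGF21-treated mice and 6.41 to 9.06 in control mice and did not pass (adjusted p = 0.932 with the antibody and 0.123 with FGF21). Control 34 was its highest control (9.06), and without that mouse Hmox1 was higher with FGF21 by 1.62 (adjusted p = 0.00072) and lower with the antibody than with FGF21 (log2 fold change −1.05, adjusted p = 0.0302).

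Of 20 partner enzymes, 2 rose and 2 fell with the antibody (20%), and 1 rose and 1 fell with FGF21 (10%). Of all genes, 5.18% and 6.32% passed. The epoxide hydrolase Ephx1, which opens epoxides that P450s form from foreign compounds, had 9.76 to 10.12 in antibody-treated mice, 9.50 to 9.89 in FGF21-treated mice and 9.21 to 9.40 in control mice. It rose by 0.62 ± 0.09 with the antibody (adjusted p = 0.00194) and 0.39 ± 0.09 with FGF21 (adjusted p = 0.0209), with no overlap with controls, and the FGF21 call ended without FGF21 37 or control 32 or 33 in turn (adjusted p 0.0546 to 0.0567). Ephx2, which hydrolyses fatty acid epoxides, had 12.88 to 13.15 in antibody-treated mice, 12.36 to 12.93 in FGF21-treated mice and 12.08 to 12.69 in control mice and rose with the antibody by 0.56 ± 0.12 (adjusted p = 0.0143; with FGF21 0.19, adjusted p = 0.417).

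Dhrs3, a retinal reductase, fell with the antibody (log2 fold change −0.55 ± 0.12, adjusted p = 0.015; with FGF21 −0.22, adjusted p = 0.326). Ptgis, prostacyclin synthase and itself a P450 under another name, had 6.14 to 6.78 in antibody-treated mice, 6.54 to 7.79 in FGF21-treated mice and 6.96 to 7.45 in control mice and fell with the antibody (log2 fold change −0.81 ± 0.20, adjusted p = 0.0335), a call that ended without aFGFR1/KLB 42, 43 or 44 or control 31, 32 or 33 in turn (adjusted p 0.062 to 0.092). Gsta3, a glutathione transferase near the filter, fell with FGF21 (log2 fold change −0.46 ± 0.12, adjusted p = 0.0365), which ended without aFGFR1/KLB 43, FGF21 37, 39 or 40 or control 31, 32, 33 or 35 in turn (adjusted p 0.0513 to 0.093).

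Of 27 transcription factors of P450 genes, limma called 0 with the antibody, where 5.18% of all genes passed. A raw limma p below 0.05 was found for 6 of the 27 and for 2558 of all 13174 genes tested. With FGF21 1 rose and 2 fell (11.1%, where 6.32% of all genes passed). Ppara, the fatty acid receptor that drives Cyp4a genes in liver, had 11.40 to 11.52 in antibody-treated mice, 10.48 to 11.27 in FGF21-treated mice and 11.29 to 11.97 in control mice and fell with FGF21 (log2 fold change −0.68 ± 0.15, adjusted p = 0.0127; with the antibody −0.29, adjusted p = 0.297). FGF21 36 was its lowest mouse (10.48), and without it the log2 fold change was −0.54 (adjusted p = 0.0088). In a fit of the FGF21 and control mice alone it did not pass (adjusted p = 0.0708). Tiparp, a target and repressor of the aryl hydrocarbon receptor, fell with FGF21 (log2 fold change −0.70 ± 0.11, adjusted p = 0.00219). Nr3c1, the glucocorticoid receptor, rose with FGF21 by 0.30 ± 0.08 (adjusted p = 0.0326), which ended without FGF21 37, 38, 39 or 40 or control 32, 33 or 35 in turn (adjusted p 0.0587 to 0.089). The probe set of Nr1i3, which encodes CAR, had a mean of 5.69 and that of Nr1i2, which encodes PXR, 5.07. Both means lie below the highest olfactory or vomeronasal receptor gene (6.28). That of Nr1i2 is also below their 95th percentile (5.36) and just above the filter (5.06). Neither Nr1i3 nor Nr1i2 passed (adjusted p = 0.995 and 0.593 with the antibody, 0.56 and 0.212 with FGF21). The aryl hydrocarbon receptor Ahr was higher by 0.31 and 0.37 (adjusted p = 0.273 and 0.163).

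**Figure D5:**
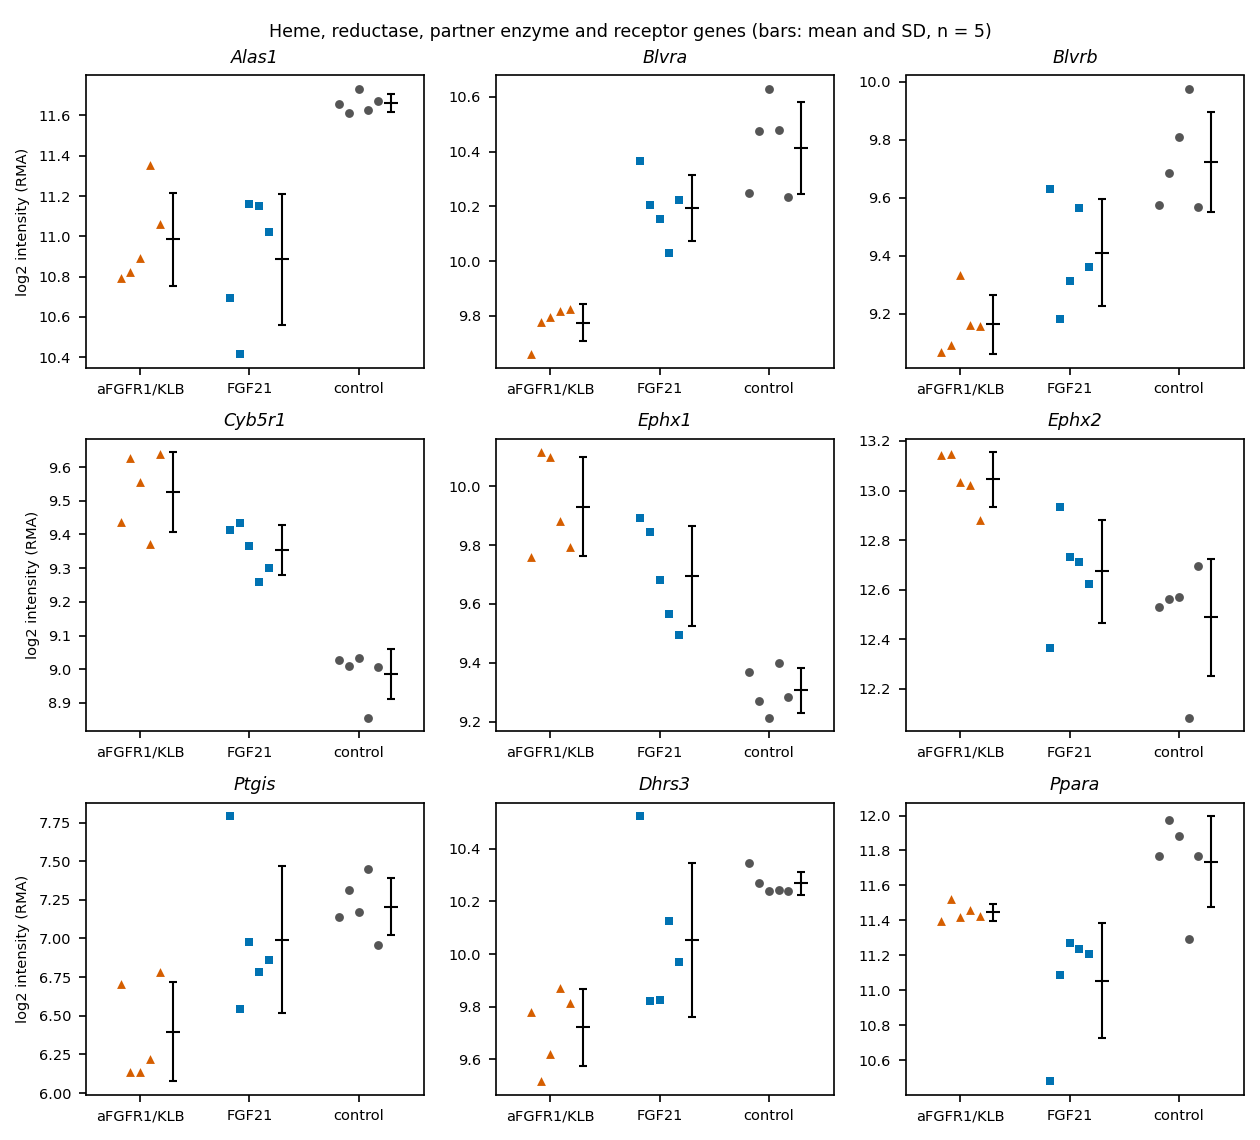
Log2 intensity (RMA) of 9 genes of heme metabolism, electron transfer, partner enzymes and Ppara in each mouse of the aFGFR1/KLB (triangles), FGF21 (squares) and control (circles) groups, with mean and SD (bars, n = 5). Each vertical axis has its own range; Alas1 lies below, and Cyb5r1 and Ephx1 above, all controls in both treated groups.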

How the data were processed

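Total RNA was read on 15 arrays with Affymetrix probe set names, 1 per mouse. The deposited values are linear intensities, 1 for each probe set and mouse, made by the authors with RMA, per the submitters' processing notes; version, chip definition and scan dates are not given in the sources used here. Their log2 was used as it stood, with no pseudocount. Of 45101 probe sets, 34958 had a lone symbol in the platform annotation, 932 had several and 9211 had none; all 72 members matched RefSeq (GRCm38.p6) with 0 changed symbols, and 51 had a promoter entry. A total of 4 probe sets with several Cyp symbols were left out.

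Genes whose probe set mean exceeded the 40th percentile of all probe set means were tested (13174). A one-way model over the 3 groups (12 residual degrees of freedom) was fitted with limma 3.58.1 in R 4.3.3, two-sided, and p adjusted by Benjamini and Hochberg within each comparison. All adjusted p come from limma unless permutation is named. Tested on simulated data with 200 of 13174 genes changed, it recovered 66.6% of changes of 0.5 and 89.9% of changes of 1 (log2) for the antibody against control, with 3.64% false calls, and 58.5% and 86.9% for FGF21 against control, with 4.71%. The simulated noise was normal, independent between genes and of equal spread in all mice. The deposited data hold mice that stand apart, so these shares need not hold for the data. Alternatives varied the filter, probe set, scale, prior, weights and samples.

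Named are all members above the filter, with every sample for those that passed and the 6 brightest, and of the 4 partner lists every gene that passed plus Cyb5a, Fdx1, Hmox1, Nr1i2, Nr1i3 and Ahr. Members and lists were chosen with earlier results of these data known. The number of arrays limits the precision; the median SE of a log2 fold change was 0.10.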

Additional observations from a re-analysis of the deposited data

Results flagged for a closer look

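In 14 of 135 gene and group pairs, 7 of them for Cyp genes, 1 of 5 mice lay far from the other 4, where chance gives about 1 in 20. Control 34 stood apart for Cyp2d22 (7.94, where the others had 8.57 to 8.77), Cyp2u1 (7.13, where the others had 7.95 to 8.21), Cyp2f2 (6.44, where the others had 4.82 to 5.13), Cyb5a (12.19, where the others had 12.36 to 12.41), Cyb5r1 (8.86, where the others had 9.01 to 9.03), Hmox1 (9.06, where the others had 6.41 to 7.13) and Ephx2 (12.08, where the others had 12.53 to 12.69). Control 31 stood apart for Cyp2e1 (6.63, where the others had 7.49 to 7.70). aFGFR1/KLB 41 stood apart for Cyp2e1 (8.41, where the others had 5.76 to 6.51) and Blvra (9.66, where the others had 9.78 to 9.82). FGF21 39 stood apart for Cyp2f2 (7.34, where the others had 4.90 to 5.47). aFGFR1/KLB 44 stood apart for Cyp2f2 (6.31, where the others had 4.69 to 5.15). FGF21 40 stood apart for Hmox2 (10.58, where the others had 10.68 to 10.71). FGF21 36 stood apart for Ppara (10.48, where the others had 11.09 to 11.27).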

How the results depend on the processing

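A total of 26 alternative fits were run: other filters, probe set rules, a pseudocount of 16, renormalisation, centring on ribosomal protein genes, another prior, array weights, and fits without 1 or 2 mice or without the group not compared; leaving out control 34 and FGF21 36 together was chosen after seeing the data. No called gene result changed sign in any of them, and 36 uncalled ones did in at least 1. Of 22 gene results called, 9 were called in every alternative that tested them, and 28 uncalled ones were called in at least 1; the cause was not tested. Without a filter 72 Cyp genes were tested, and with the 60th percentile as filter 13, which left out Cyp2c70.

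For FGF21 against control, the 2 Cyp calls became 1 with no filter, 1 with quantile normalisation and 1 with ribosomal centring, 6 with array weights and 4 without control 34 and FGF21 36. Between antibody and FGF21, array weights gave 3 Cyp calls in place of 0. Of the 69 partner genes, calls for the antibody against control were 22 with array weights and 15 without both mice, in place of 9. For FGF21 against control they were 1 with ribosomal centring, 20 with array weights, 18 without both mice and 4 in a fit of these 2 groups alone, in place of 7. Between the treatments they were 0 with no filter, 0 with ribosomal centring, 13 with array weights and 4 without both mice, in place of 1.

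Over all genes, the antibody against control gave 181 calls with ribosomal centring, 2307 with array weights and 1631 without both mice, in place of 682. FGF21 against control gave 210 with ribosomal centring, 2855 with array weights, 2138 without both mice and 322 with 2 groups alone, in place of 833. Antibody against FGF21 gave 77 with the 60th percentile filter, 8 with ribosomal centring, 81 with trend and robust prior, 832 with array weights, 241 without both mice and 87 with 2 groups alone, in place of 49. Ribosomal centring left 138 higher and 43 lower calls for the antibody and 136 and 74 for FGF21, where the scale as deposited gave 354 and 328, and 348 and 485.

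Leaving out 1 mouse at a time gave 2 to 4 Cyp calls for the antibody, 1 to 4 for FGF21 and 0 between the treatments. It gave 7 to 12, 4 to 17 and 0 to 3 calls among partner genes and 336 to 1140, 463 to 2097 and 10 to 251 over all genes, in the same order, with each highest count without control 34. No paired analysis was possible because the groups share no replicate numbers.

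Depth has no counterpart on arrays. Members near the filter give signal within the upper range of the receptor genes. The receptor genes had a median of 3.79, and 6 of the 70 were above the filter.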
